A study of Drosophila melanogaster with 73 samples.

Results

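Dawn was compared with dusk in the abdominal fat bodies of female flies kept at 25°C under 12 h of light and 12 h of darkness. The members were the libraries labelled 25C on days 4 and 5 and taken within 2 h of either light transition, 12 of the 73 libraries in the table. Dawn comprised 4 libraries, at ZT22 of day 4 and at ZT00 (with a library of each replicate number) and ZT02 of day 5, where ZT counts the hours since lights on. Dusk comprised 8 libraries, at ZT10, ZT12 and ZT14 of both days for replicate 1 and at ZT12 of both days for replicate 2. The 4 dawn libraries therefore came from a single night-to-day transition, whereas the dusk libraries came from 2 evenings, so that dawn and the day of that transition cannot be told apart. All flies were of the Iso31 strain, an isogenic w1118 line, with no other allele or agent named in the labels. They were aged with males for 3 days, entrained for 3 days on a 15% sucrose–yeast diet and then, at about 7 days of age, either kept at 25°C or moved to 18°C. Each library pooled the fat tissue of about 10 flies, dissected away from gut, ovaries and Malpighian tubules, and the labels do not say whether the replicate numbers mark separate cultures, so that p-values measure the spread between these libraries only. For the comparison with 18°C, 3 dawn and 8 dusk libraries of days 4 and 5 were used.

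The fly fat body acts as liver and adipose tissue together: it stores triglyceride and glycogen, makes yolk and lipoproteins, detoxifies, and secretes antimicrobial peptides. It holds its own circadian clock, in which CLK and CYC activate per, tim, vri, Pdp1 and cwo around the end of the day, PER and TIM repress CLK–CYC during the night, and VRI and PDP1 act on Clk itself. Libraries collected around lights on and around lights off therefore sample different phases of this loop.

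Expression was given in TPM (transcripts scaled to a fixed total per library), a length-corrected share of the library that keeps no record of depth, so that the depth behind each value is unknown. The fat body markers were abundant in every library, with summed levels of 39130–45250 TPM at dawn and 35450–51530 TPM at dusk over 12 genes. Markers of other tissues were also present and varied between libraries. The 17 eggshell genes summed to 4.39–7236 TPM at dawn and 2.83–1342 TPM at dusk, with the highest sums in ZT00 day 5 replicate 1 and ZT12 day 4 replicate 2, and the 33 gut genes to 23.9–1721 TPM at dawn and 10.6–744 TPM at dusk. The 11 Malpighian tubule genes summed to 123.6–3618 TPM at dawn and 53.7–1900 TPM at dusk, with medians of 1483 and 389.4 TPM. All 9 of them that were tested had a difference above 0 (median 1.46, highest 2.07 on the log2 scale) and none was called, and the part of tubule RNA in the increases at dawn was not tested. Of the 8 male accessory gland genes, 7 were listed at 0 in all 12 libraries. Only the 11 oenocyte genes separated the windows, with 25410–29340 TPM at dawn and 29470–34940 TPM at dusk.

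Of 23932 genes, 7131 had a median above 5 TPM over the 12 libraries and were tested by limma on log2(TPM + 1), with p-values adjusted over all of them. At an adjusted p below 0.05, 97 genes (1.36%) differed between dawn and dusk, of which 39 (0.547%) were higher and 58 (0.813%) were lower at dawn. The increases were the larger: called increases ranged from 0.34 to 3.11 and called decreases from -1.36 to -0.27 on the log2 scale, and 14 increases but 5 decreases reached 1. In 201 genes (2.82%) the 4 dawn libraries did not overlap the 8 dusk libraries, among them 86 of the 97 called genes, 35 of them higher and 51 lower. At an unadjusted p below 0.05 there were 1018 genes (14.3%). The median difference over all tested genes was 0.07. When the libraries were rescaled by size factors, 128 genes were called and the share of them that was higher at dawn was 28.9%, against 40.2% of the calls in the values as deposited.

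The calls depended on single libraries. Between 10 and 138 genes were called when each library was left out in turn. The count stood at 10 without ZT22 day 4 replicate 1, at 28 without ZT00 day 5 replicate 1, at 25 without ZT02 day 5 replicate 1, at 26 without ZT14 day 4 replicate 1, at 43 without ZT12 day 5 replicate 1, at 47 without ZT14 day 5 replicate 1 and at 59 without ZT12 day 4 replicate 2. Without both libraries that held over 1000 TPM of eggshell transcripts 10 genes were called, and when germline, eggshell and gut marker levels were included as covariates 10 genes were called. Of 58 called genes that were followed through these fits, 8 kept their call whichever library was left out: vri, CG8534, geko, GstZ2, Obp56d, Cyp6a21, ref(2)P and Pomp.

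**Figure D1:**
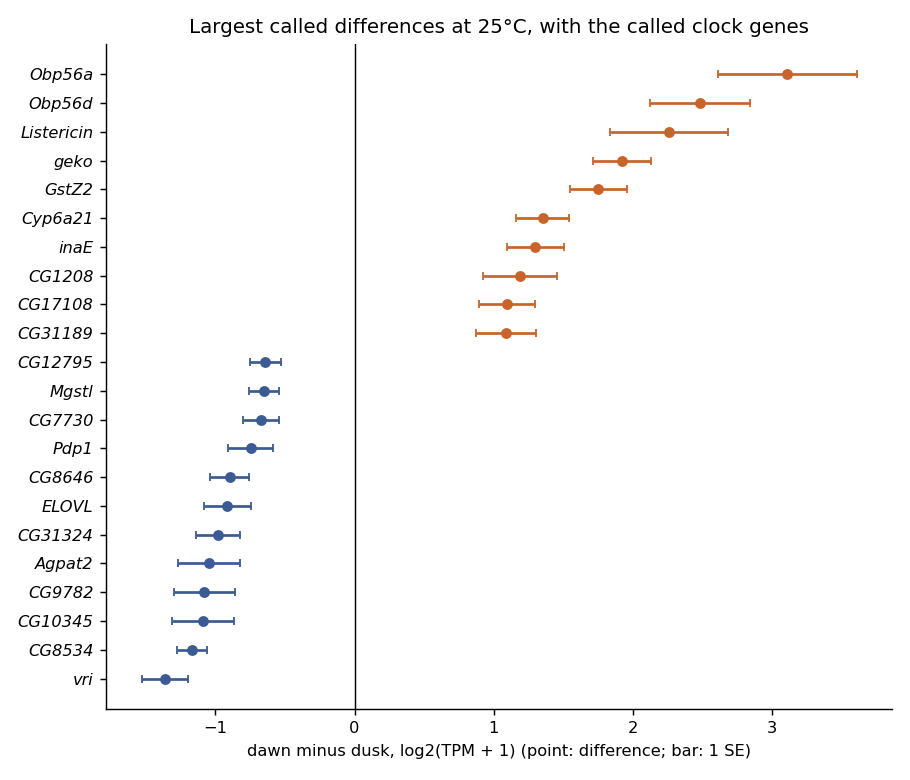
Difference between dawn and dusk at 25°C on the log2(TPM + 1) scale (x axis, point with a bar of 1 standard error) for the 10 largest called increases and decreases whose libraries do not overlap, and for the 2 called clock genes. Increases reach 3.11 (Obp56a), whereas decreases end at -1.36 (vri).

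Among the clock genes, the targets of CLK–CYC had the lower values at dawn, and 2 of them passed the test. vri, which encodes the bZIP repressor of Clk (chromosome 2L, 5288944–5311223), had 55.2, 39.3, 38.2 and 46.2 TPM in the dawn libraries (ZT22, ZT00 replicate 1, ZT02 and ZT00 replicate 2, the order kept below), against a lowest, median and highest value of 83.6, 105.9 and 158 TPM at dusk. Every dawn library thus lay below every dusk library, and the difference was -1.36 ± 0.167 (log2, SE; adjusted p = 0.00269). Pdp1, the bZIP activator of Clk, had 44.3, 44.5, 52.0 and 43.5 TPM at dawn, against 53.4, 83.4 and 105.98 TPM at dusk. Its windows did not overlap either, and the difference of -0.75 ± 0.164 passed the threshold (adjusted p = 0.0445), although the call held in only 2 of the 12 fits that left out a library.

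Other members of the loop had lower means at dawn without passing the test. per, the PAS-domain repressor of CLK–CYC, had 7.15, 6.20, 4.28 and 4.91 TPM at dawn and 7.55, 9.10 and 13.6 TPM (lowest, median and highest) at dusk, which did not overlap, with a difference of -0.69 ± 0.159 and an adjusted p of 0.0529. cwo, a bHLH-Orange repressor of the same targets, was also separated, at 33.3–35.3 TPM at dawn and 36.9–53.0 TPM at dusk, with a difference of -0.36 ± 0.108 (adjusted p = 0.128). For tim, the partner of per, the windows overlapped, with 104.2, 75.5, 44.4 and 79.9 TPM at dawn against 67.0, 116 and 152 TPM at dusk. Its difference of -0.59 ± 0.233 was not called (adjusted p = 0.259), and its dawn values fell in order of clock time, the lowest being at ZT02. Across the night, tim averaged 156 ± 21.0 TPM in the 7 midnight libraries and 30.1 ± 9.05 TPM in the 7 midday libraries (SD), so that its dawn libraries lay on a declining flank.

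Clk, cyc and cry had higher means at dawn and were not called either. Clk had 10.8, 14.4, 18.8 and 14.5 TPM at dawn against 6.29, 8.86 and 15.2 TPM at dusk, which overlapped, with a difference of 0.60 ± 0.212 (adjusted p = 0.221). Its partner cyc differed by 0.14 ± 0.0954 and cry, the blue-light photoreceptor, by 0.23 ± 0.158 (adjusted p = 0.516 and 0.539). The midday and midnight libraries separated cry far more, at 174 ± 11.7 and 71.0 ± 13.9 TPM (SD, n = 7 each), than dawn and dusk did. In all, 2 of 8 core clock genes were called, both lower at dawn, beside 0.813% of all tested genes called lower. The median over the 8 was -0.48, beside 0.07 over all tested genes. Since the library protocol did not mark strand and per, tim and cry each overlap an exon of a gene on the other strand, reads of such partners cannot be told apart from theirs.

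**Figure D2:**
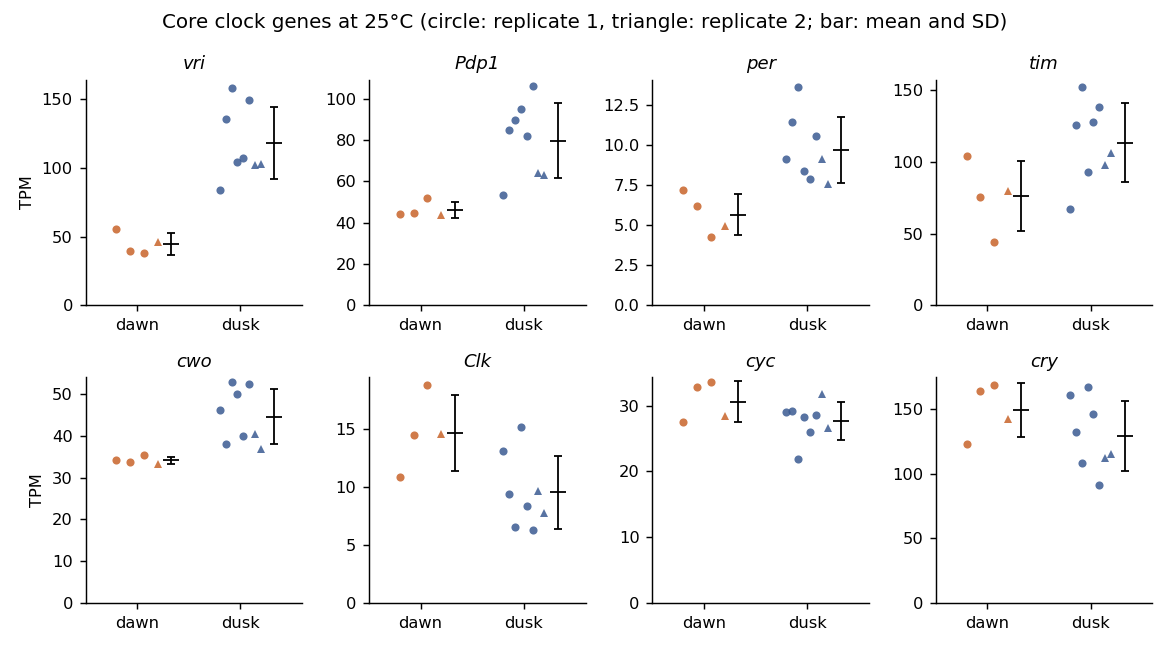
TPM (y axis, from 0) of the 8 core clock genes in the 4 dawn and 8 dusk libraries at 25°C, with points for libraries and a bar for the mean and SD. vri, Pdp1, per and cwo show dawn values below all dusk values, whereas tim, Clk, cyc and cry overlap.

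The largest called increases at dawn were of odorant-binding proteins, small secreted carriers of hydrophobic ligands, and of an immune peptide. Obp56a had 76.8, 42.1, 99.3 and 119 TPM at dawn, against 1.71, 7.95 and 22.5 TPM at dusk, and did not overlap. The difference was 3.11 ± 0.5003 (log2, SE; adjusted p = 0.0127), and the call was lost without ZT22 day 4 replicate 1 or ZT02 day 5 replicate 1. Obp56a also varied widely outside the 2 windows, at 35.0 ± 50.6 TPM at midday and 68.3 ± 125 TPM at midnight (SD, n = 7 each). Its neighbour Obp56d had 139, 110.1, 155 and 160.1 TPM at dawn, against 12.3, 20.1 and 58.5 TPM at dusk, a difference of 2.48 ± 0.357 (adjusted p = 0.00871). Outside the 2 windows Obp56d was irregular, with 353 TPM in the library of ZT16 on day 4 and between 15.3 and 168 TPM in the midday libraries. Listericin, an antibacterial peptide, had 136, 150.2, 147 and 250.2 TPM at dawn and 18.3, 29.5 and 85.1 TPM at dusk, and rose by 2.26 ± 0.424 (adjusted p = 0.0260). It was 1 of 20 tested antimicrobial peptide genes to be called, beside 1.36% of all tested genes, and the median over these 20 was 0.10. Within Toll and Imd signalling, 1 of 28 genes was called, beside the same 1.36%. This gene, modSP, the modular serine protease at the head of the Toll cascade, had 113, 105, 97.4 and 111 TPM at dawn against 66.7, 75.2 and 87.2 TPM at dusk (0.48 ± 0.0782, adjusted p = 0.0127).

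geko, a gene first known from an olfactory mutant (chromosome 3L, 18139402–18145418), had 107.7, 105.5, 140.2 and 88.8 TPM at dawn, against 20.5, 25.9 and 50.1 TPM at dusk. The windows did not overlap, and the difference was 1.92 ± 0.210 (adjusted p = 0.00186). GstZ2, a zeta-class glutathione transferase of the tyrosine degradation route (chromosome 3R, 9456815–9460652), had 122, 176, 147 and 119 TPM at dawn, against 31.6, 38.6 and 68.7 TPM at dusk (1.75 ± 0.206, adjusted p = 0.00222). Neither was confined to dawn, since at midday geko averaged 99.6 ± 39.6 TPM and GstZ2 104.2 ± 26.4 TPM (SD, n = 7), and in the replicate 1 course both were above their dusk values from ZT20 of day 4 to ZT08 of day 5.

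Of 52 tested cytochrome P450 genes, 3 were called higher at dawn and 1 lower (Cyp4g1, of hydrocarbon synthesis), with a median of 0.19. Over all tested genes, 0.547% were called higher and 0.813% lower. Cyp6a21 had 28.7, 42.5, 32.98 and 31.5 TPM at dawn and 7.60, 12.5 and 19.5 TPM at dusk, without overlap (1.35 ± 0.189, adjusted p = 0.00871). Cyp9f2 rose by 0.42 ± 0.0843 and Cyp6a9 by 0.35 ± 0.0762 (adjusted p = 0.0292 and 0.0411), both with a highest dusk library below the lowest dawn library. For Cyp6a9 these were close, at 53.0 and 53.7 TPM. Of the 12 fits that left out a library, the call held in 5 for Cyp9f2 and 2 for Cyp6a9. Among 13 UDP-glycosyltransferases, Ugt36A1 was called, at 9.02–10.7 TPM at dawn and 5.51–8.17 TPM at dusk, a call that held in 2 of 12 such fits. Outside these families, inaE, a diacylglycerol lipase, rose by 1.30 ± 0.206 (10.2–22 TPM at dawn and 4.32–8.58 TPM at dusk), and alc, the beta subunit of AMP-activated protein kinase, by 0.47 ± 0.0864 (169–195 TPM and 119–153 TPM). CG17108 had 1057, 718, 706 and 845 TPM at dawn against 231, 408 and 551 TPM at dusk (1.10 ± 0.201, adjusted p = 0.0260). CG1208 was called on the strength of 1 library, with 73.4, 20.9, 34.5 and 19.9 TPM at dawn and 11.3, 13.8 and 15.8 TPM at dusk, and its difference of 1.19 came to 0.80 without ZT22 day 4 replicate 1, when it was no longer called. CG31189 rose by 1.09 ± 0.216 (20.2–25.9 TPM and 6.16–18.8 TPM).

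The smallest p-value of the comparison belonged to a gene of lipid synthesis that was lower at dawn. CG8534, a predicted fatty acid elongase (chromosome 3R, 9812747–9813939), had 24.7, 27.6, 26.6 and 27.1 TPM at dawn, against 46.9, 63.8 and 69.5 TPM at dusk. The dawn libraries were tightly grouped and lay below every dusk library, with a difference of -1.17 ± 0.108 (adjusted p = 0.00056). An antisense RNA gene over the same locus, asRNA:CR44035 (chromosome 3R, 9810020–9813929), was also called, at 99.5–126 TPM at dawn and 125–259 TPM at dusk, which overlapped (-0.71 ± 0.154, adjusted p = 0.0411), and without strand the reads of these 2 genes cannot be told apart. Of 79 tested long noncoding RNAs it alone was called, a share near the 1.36% of all tested genes.

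A further elongase gene, ELOVL, had 100.03, 136, 171 and 103 TPM at dawn against 175, 243 and 302 TPM at dusk (-0.92 ± 0.170, adjusted p = 0.0260). Among 18 genes of fatty acid and triglyceride synthesis, 1 was called in each direction and the median was -0.22. Over all tested genes, 0.547% were called higher and 0.813% lower. Agpat2, which acylates lysophosphatidate, had 9.58, 21.2, 21.6 and 13.1 TPM at dawn against 22.6, 33.8 and 44.9 TPM at dusk (-1.05 ± 0.225, adjusted p = 0.0411), a call that held in 2 of 12 fits without a library. mdy, the diacylglycerol acyltransferase of the last step of triglyceride synthesis, was higher at dawn, at 89.5, 60.3, 73.5 and 93.0 TPM against 38.3, 45.0 and 66.7 TPM at dusk, with overlapping windows (0.75 ± 0.151, adjusted p = 0.0305) and a call in 4 of 12 such fits. LpR1, a lipophorin receptor and the only called gene of 15 in lipid transport, had 165–223 TPM at dawn and 231–301 TPM at dusk (-0.44 ± 0.0934, adjusted p = 0.0363).

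Some genes of phospholipid and acyl-CoA metabolism, picked after their values were seen and so without a denominator, were called lower as well. The phospholipid synthesis genes bbc and Pcyt1 fell by 0.47 ± 0.0898 and 0.42 ± 0.0939 (adjusted p = 0.0260 and 0.0472), Acbp2, which binds acyl-CoA, by 0.34 ± 0.0644, and Aldh-III, a fatty aldehyde dehydrogenase, by 0.51 ± 0.0956 (both adjusted p = 0.0260). Of the 12 fits that left out a library, the call held in 8 for bbc, 2 for Pcyt1, 6 for Acbp2 and 6 for Aldh-III. Oenocytes, hydrocarbon-producing cells that lie against the cuticle with the fat body, were represented in the same libraries. Cyp4g1, the decarbonylase of hydrocarbon synthesis, averaged 14260 ± 858.1 TPM at dawn and 17190 ± 1236 TPM at dusk (SD; -0.27 ± 0.0579, adjusted p = 0.0411), and Fad2, a desaturase of female pheromone synthesis, had 3288, 3149, 3344 and 4296 TPM at dawn against 4015, 4651 and 5229 TPM at dusk with overlap (-0.43 ± 0.0899, adjusted p = 0.0363). Fad2 is not on the oenocyte list and was picked after its value was seen. Of the 11 oenocyte markers 1 was called (Cyp4g1), beside 1.36% of all tested genes. Below 0 were 9 of the 11, and 2 were above 0 (CG17560, 0.35 ± 0.262, and CG17562, 0.43 ± 0.213). The median of the 11 was -0.23, and no marker was at 0 in all libraries. The part of the oenocyte level in the lipid gene differences was not tested, and fewer cells of a type and less RNA per cell cannot be told apart in these pooled tissues.

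The main enzymes of the pentose phosphate pathway that supply NADPH, the reductant of fatty acid synthesis and of glutathione recycling, were lower at dawn. Zw, glucose-6-phosphate dehydrogenase, had 144, 144, 177 and 148 TPM at dawn against 179.7, 217 and 269.9 TPM at dusk (-0.48 ± 0.102, adjusted p = 0.0371), and Pgd, 6-phosphogluconate dehydrogenase, had 389.98, 369, 478 and 502 TPM at dawn against 571, 681 and 767 TPM at dusk (-0.63 ± 0.103, adjusted p = 0.0136). Both were without overlap between the windows, and the call held in 4 (Zw) and 10 (Pgd) of the 12 fits that left out a library. Each shares exon sequence with a gene on the other strand, whose reads cannot be told apart from its own. Zw and Pgd were the 2 called of 8 pentose phosphate pathway genes, beside 1.36% of all tested genes. An unadjusted p below 0.05 was held by 6 of the 8 (beside 14.3% of all tested genes), and the median of the 8 was -0.31. Over the 4 windows, Zw had its lowest mean at midnight (133 ± 17.2 TPM, SD, n = 7), below its dawn mean of 153 ± 15.9 TPM (n = 4). Pgd had its lowest mean at dawn, 435 ± 65.1 TPM, with 478 ± 56.0 TPM at midnight and 676 ± 91.3 TPM at midday.

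Of 34 antioxidant and glutathione genes, 1 was higher (GstZ2) and 3 were lower, beside 0.547% and 0.813% of all tested genes. Besides Pgd these were Keap1, the inhibitor of the stress-response factor CncC, with 10.52, 13.8, 13.3 and 10.8 TPM at dawn against 14.97, 17.2 and 18.5 TPM at dusk (-0.46 ± 0.0857), and the microsomal glutathione transferase Mgstl, with 869, 1138, 1049 and 1168 TPM at dawn against 1402, 1623 and 2145 TPM at dusk (-0.65 ± 0.110). Neither overlapped, with adjusted p-values of 0.0260 and 0.0166. The other large decreases were in genes with no role given here: CG10345 (-1.09), CG9782 (-1.08), CG31324 (-0.98), CG8646 (-0.90), CG7730 (-0.67) and CG12795 (-0.64).

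**Figure D3:**
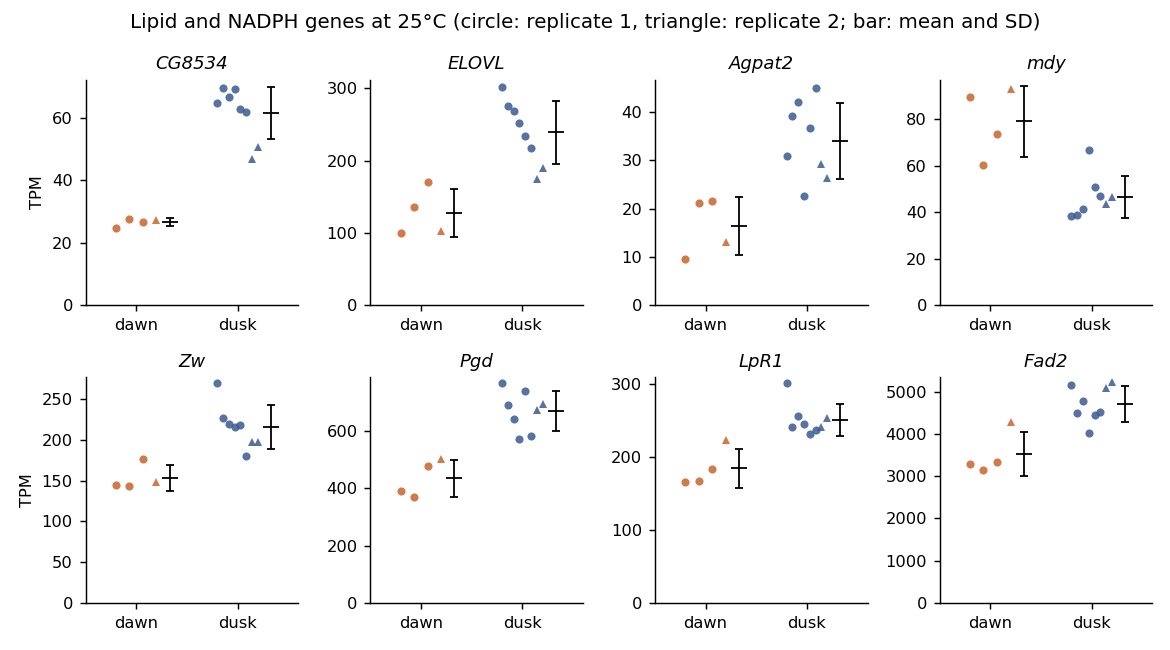
TPM (y axis, from 0) of 8 genes of lipid metabolism and NADPH supply in the 4 dawn and 8 dusk libraries at 25°C, with points for libraries and a bar for the mean and SD. mdy is higher at dawn, with 60.3–93.0 TPM against 38.3–66.7 TPM at dusk, and the other 7 genes are lower.

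Genes of the proteasome had lower values at dawn throughout the family. The proteasome degrades ubiquitin-tagged proteins in a core of stacked alpha and beta rings capped by a regulatory particle, whose ATPase base (Rpt) unfolds the substrate and whose other subunits (Rpn) bind and strip ubiquitin. The family was chosen after several members had been seen among the called genes, so that its counts are a description. Of 48 listed proteasome genes, 33 were tested, the others being below the expression filter. All 33 had a difference below 0, from -0.62 to -0.30 with a median of -0.41, beside 2344 of 7131 below 0 and a median of 0.07 over all tested genes. In 19 of the 33 the decrease was called and in 19 the windows did not overlap, beside 0.813% and 2.82% of all tested genes, and 32 had an unadjusted p below 0.05.

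The median level over the 33 proteasome genes was 249.6, 227.3, 245.8 and 283.2 TPM in the dawn libraries, against 279.9–384 TPM in the dusk libraries. Only ZT00 replicate 2 reached into the dusk range. Of the alpha ring 5 of 7 genes were called, with a median of -0.49, of the ATPase base 4 of 6 (-0.38), of the non-ATPase regulatory subunits 8 of 12 (-0.40), of the beta ring 1 of 7 (-0.36), and the maturation factor Pomp made up the 19. Prosalpha4 had 309, 284, 302 and 379 TPM at dawn against 414, 488 and 564 TPM at dusk (-0.62 ± 0.0919, adjusted p = 0.00874), and Prosalpha6 had 249.6, 269, 267 and 328 TPM against 376, 411 and 514 TPM (-0.60 ± 0.0928, adjusted p = 0.0109). Among the regulatory subunits, Rpt5 had 142, 140.3, 149 and 157 TPM at dawn against 186, 207 and 242 TPM at dusk (-0.49 ± 0.0733, adjusted p = 0.00874), and Rpn9 had 165–199 TPM and 229–301 TPM (-0.52 ± 0.0859, adjusted p = 0.0135). The catalytic subunit gene Prosbeta5 was not called, at 346–465 TPM at dawn and 372–612 TPM at dusk (-0.31 ± 0.115, adjusted p = 0.240). Prosalpha1 has a near-identical neighbouring copy, CG30382, between which reads could be split, and their values (-0.55 ± 0.504, not called, and -0.42 ± 0.0808, called) are uncertain on that account.

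Pomp, which matures the core, had 214, 201, 217 and 228 TPM at dawn against 273, 309.7 and 358 TPM at dusk (-0.53 ± 0.0758, adjusted p = 0.00871) and kept its call whichever library was left out. ref(2)P, the fly p62 that carries ubiquitinated cargo to autophagy (chromosome 2L, 19542468–19545548), had 719.6, 615, 729 and 773 TPM at dawn against 989.8, 1044 and 1146 TPM at dusk (-0.57 ± 0.0673, adjusted p = 0.00222). Its windows were far apart relative to their spread, although an exon of a gene on the other strand overlaps it. Such an overlap also holds for Pomp, Rpt5, Rpt6, Rpn9, Prosbeta3, Prosbeta5, Prosalpha1, CG30382, PSMG1 and TER94. Among genes of ubiquitin handling picked after their values were seen, which have no denominator, decreases were called for the assembly chaperone PSMG1 (-0.61), the ubiquitin ligase Trc8 (-0.60), the deubiquitinase Usp14 (-0.38), the shuttle factor Ubqn (-0.36) and the segregase TER94 (-0.35), whereas the shuttle factor Rad23 fell short (-0.32 ± 0.0718, adjusted p = 0.0517). Of 23 tested autophagy genes 1 was called in each direction, beside 0.547% of all tested genes higher and 0.813% lower. Against ref(2)P, the initiating kinase Atg1 rose by 0.72 ± 0.130, with 45.9, 38.6, 30.2 and 33.9 TPM at dawn and 17.9, 21.8 and 27.8 TPM at dusk (adjusted p = 0.0254).

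The direction of the proteasome difference was steadier than its calls, but the alternative fits draw on the same dawn and dusk libraries. Changing only the filter or the variance prior leaves each difference as it was, so the steady direction is no separate support. With 32 or 33 of 33 genes below 0 in each of 26 alternative fits, the number called lower ranged from 0 to 29. It was 1 without ZT22 day 4 replicate 1, 4 without ZT00 day 5 replicate 1, 4 without ZT02 day 5 replicate 1, 5 without ZT14 day 4 replicate 1, 8 without ZT12 day 5 replicate 1, 10 without ZT14 day 5 replicate 1, 12 without ZT12 day 4 replicate 2 and 29 without ZT10 day 5 replicate 1, and 0 without both libraries of high eggshell content. On days 1 and 2, for which 2 dawn libraries and 1 dusk library exist at 25°C, 21 of the 33 (63.6%) were below 0 with a median of -0.02, near the 3839 of 7131 (53.8%) and the median of -0.03 over all tested genes. Within days 4 and 5 the median over the 33 was -0.23 for midday minus dusk and -0.18 for midnight minus dusk, so that dusk was the high point and dawn the low point of the 4 windows.

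Whether the dawn difference depended on temperature was tested by the window-by-temperature term over 23 libraries (25°C minus 18°C). As deposited, 40 genes (0.561%) were called, 36 (0.505%) of them more negative at 25°C, and 24 of those were also called lower at dawn at 25°C. The term contains that same 25°C difference, so part of this overlap was built in. After rescaling by size factors no gene was called (smallest adjusted p = 0.122, 749 genes with an unadjusted p below 0.05, against 902 as deposited). The median difference over all genes was 0.19 at 18°C and 0.07 at 25°C, and the rescaling moved the median of the temperature term by over 0.1, to -0.01 against -0.12 as deposited. Without ZT22 of day 4 at 18°C no gene was called either (1608 with an unadjusted p below 0.05), and 3 were called without ZT00 at 18°C. At 25°C, 5 were called without ZT22, 2 without ZT00 replicate 1 and 4 without ZT02. Among the dusk libraries, the count was 83 without ZT10 and 70 without ZT12 replicate 2 of day 4 at 18°C, and 21–26 without any one of ZT12 or ZT14 of day 4 or ZT10 or ZT12 of day 5 (all replicate 1) at 18°C, or of the ZT12 and ZT14 libraries at 25°C. These calls therefore rest on the scale of the deposited values and on single libraries, and without the libraries of high eggshell content 284 genes were called, of which 0 were proteasome genes. That fit kept 1 of 3 dawn and 4 of 8 dusk libraries at 18°C, so that its dawn arm was ZT02 alone, which is assumed to vary like the other groups.

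Within these limits, proteasome genes made up 19 of the 40 calls, with a median term of -0.60 over the 33. The family was picked for its decreases at 25°C, which the term contains, so a negative term was partly built in for these genes. At 18°C their dawn minus dusk median was 0.18 with all 33 above 0, close to the 0.19 of all tested genes, of which 5555 of 7131 were above 0. After rescaling the median of the 33 at 18°C was -0.01, with 14 of 33 above 0. The 18°C libraries held 3160, 13560 and 66.5 TPM of eggshell transcripts at dawn (ZT22, ZT00 and ZT02) and 11.1–13800 TPM at dusk. Up to 1000 TPM was held by 1 of the 3 dawn and 4 of the 8 dusk libraries, so that few libraries separate this content from the window. Relative to the median of all genes, the proteasome genes stood at -0.48 at 25°C and at -0.01 at 18°C, and the term after rescaling was -0.48 with all 33 below 0, of which 30 had an unadjusted p below 0.05. Without the libraries of high eggshell content, which left 1 dawn library at 18°C, their median term was -0.43, beside -0.20 over all tested genes. Prosalpha6, with the smallest p, had 441, 427 and 371 TPM in the 18°C dawn libraries (ZT22, ZT00 and ZT02) and 315–397 TPM in the 18°C dusk libraries, a term of -0.85 ± 0.133 (adjusted p = 0.00668). ref(2)P had 1405, 1094 and 883 TPM at dawn and 703–1014 TPM at dusk at 18°C, a term of -1.001 ± 0.156 (adjusted p = 0.00668).

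**Figure D4:**
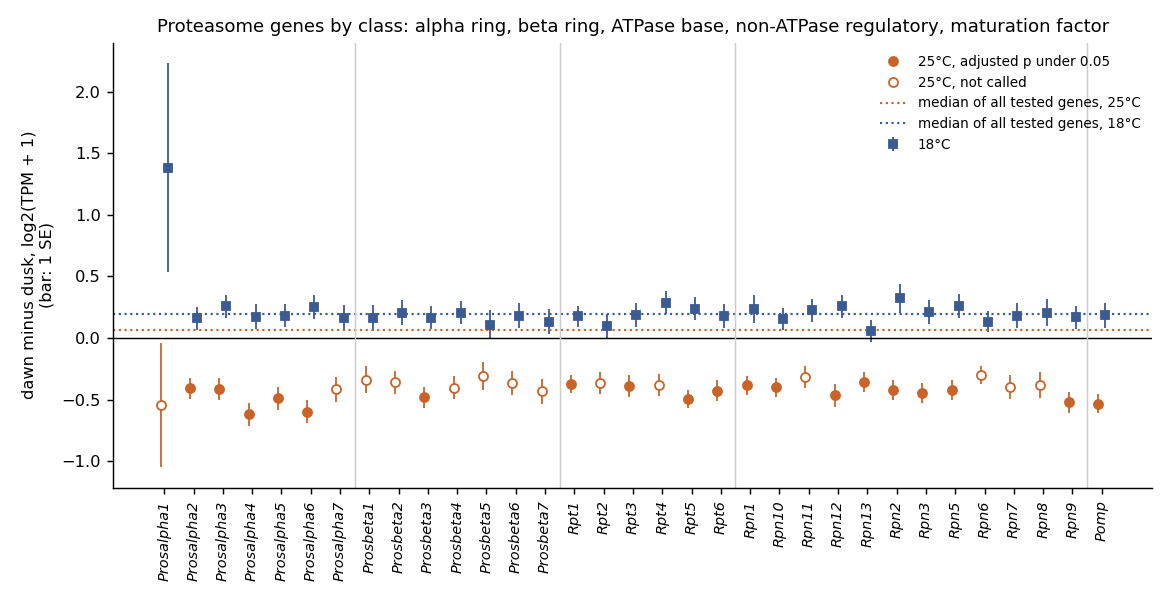
Dawn minus dusk on the log2(TPM + 1) scale (y axis, point with a bar of 1 standard error) of the 33 tested proteasome genes at 25°C and 18°C, ordered by class, with dotted lines at the median of all tested genes. The 25°C values lie between -0.62 and -0.30, all below the 0.07 of all genes, and the 18°C values as deposited lie around the 0.19 of all genes, except for Prosalpha1.

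The temperature term was called for none of the 8 clock genes, beside 0.561% of all tested genes. vri differed by -1.27 ± 0.163 at 18°C (52.5–56.8 TPM at dawn and 109–167 TPM at dusk), and its term was -0.10 ± 0.220 (adjusted p = 0.862). Pdp1 differed by -0.86 ± 0.194 at 18°C with a term of 0.11 ± 0.261 (adjusted p = 0.872). The largest clock term was that of tim, 0.99 ± 0.297 (adjusted p = 0.153): at 18°C it had 50.3, 32.8 and 29.8 TPM at dawn and 91.5–125 TPM at dusk, without the overlap seen at 25°C. For Clk the term was -0.70 ± 0.275 (adjusted p = 0.299), with 11.8–12.2 TPM at dawn and 3.51–5.82 TPM at dusk at 18°C. geko (1.38 ± 0.218 at 18°C), GstZ2 (1.04 ± 0.244), Cyp6a21 (1.15 ± 0.199) and inaE (1.25 ± 0.210) were also higher at dawn at 18°C, and their terms were not called (adjusted p = 0.432, 0.372, 0.739 and 0.955).

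Some of the genes that rose at dawn at 25°C had 18°C dawn values within or below the dusk range. CG17108 had 844–1146 TPM at dawn and 764–1263 TPM at dusk at 18°C, and its term of 1.25 ± 0.277 was called as deposited (adjusted p = 0.0407). The growth factor gene Idgf3, with 169.6, 168, 152 and 152 TPM at dawn and 107, 118 and 141 TPM at dusk at 25°C (0.41 ± 0.0817), had 151–155 and 157–193 TPM at 18°C, and its term was 0.57 ± 0.111 (adjusted p = 0.0186). For Obp56d and Listericin the 18°C dusk libraries ranged widely, from 19.6 to 363 and from 33.5 to 276 TPM, and terms of 3.03 ± 1.01 and 2.71 ± 0.684 were not called (adjusted p = 0.204 and 0.0760).

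The course through days 4 and 5 at 25°C shows how the windows sit in the cycle of each gene. In replicate 1, vri rose to 158 TPM at ZT14 of day 4, fell to 33.3 TPM at ZT04 of day 5 and stood at 149 TPM at ZT14 of day 5. CG8534 held its lowest replicate 1 value, 24.7 TPM, at ZT22, and the lowest of all 26 libraries, 22.8 TPM, was a midday library of replicate 2 (ZT06 of day 5). Zw was lowest at ZT18 of day 4 (111 TPM), 4 h before the first dawn library. Prosalpha6 had its lowest value of the course at ZT22 (249.6 TPM) and its highest at ZT10 of day 4 (514 TPM).

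**Figure D5:**
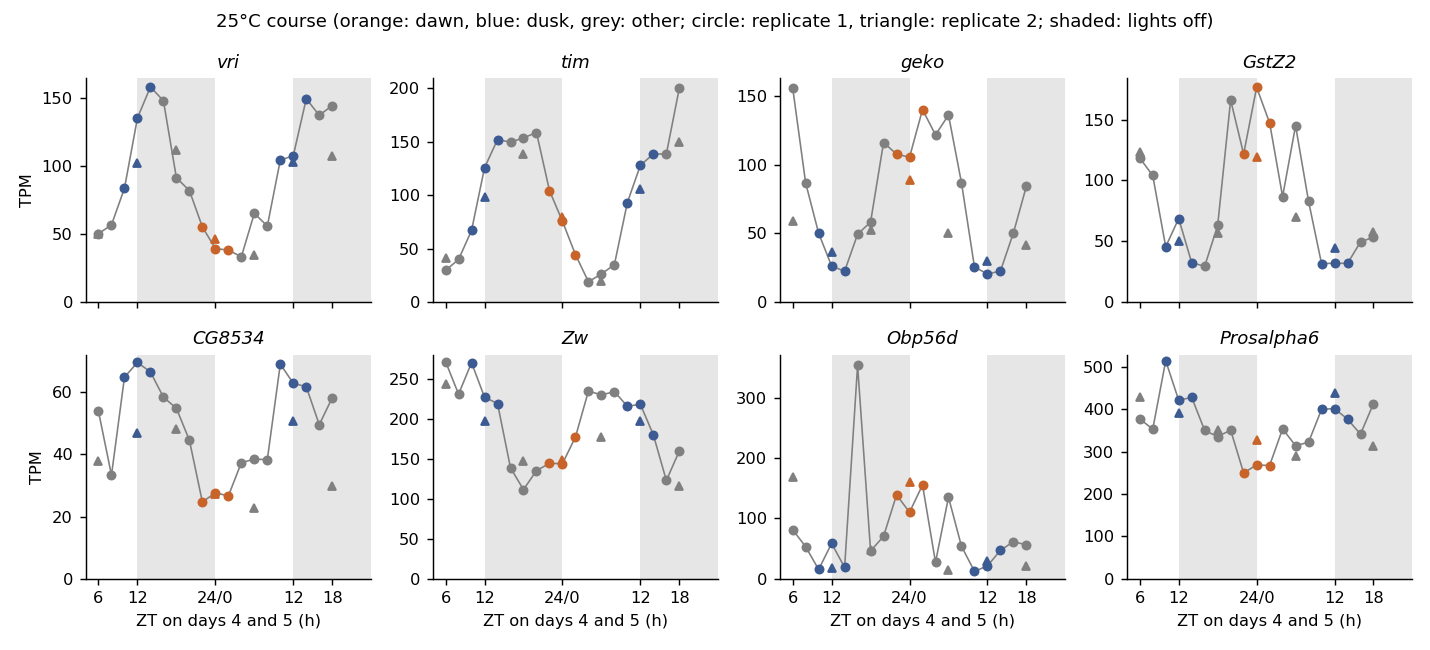
TPM (y axis, from 0) of 8 genes against ZT through days 4 and 5 at 25°C (x axis, h), with the replicate 1 libraries joined by a line, replicate 2 as triangles, and dawn and dusk libraries in colour. vri and CG8534 are low in every dawn library, geko and GstZ2 are high there and at midday, and tim and Zw have their lowest replicate 1 values at ZT04 and ZT18.

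Several systems of the fat body held no called gene between dawn and dusk. As 1.36% of all tested genes were called, lists of these sizes would hold few or no calls at that share. None of 18 fatty acid beta-oxidation genes (median -0.05), 12 lipid droplet and lipolysis genes (0.13), 10 trehalose and glycogen genes (0.04), 17 glycolysis genes (-0.11), 30 amino acid metabolism genes (0.10), 21 insulin and TOR genes (0.07) or 3 yolk protein genes (-0.10) passed, with 1, 2, 0, 2, 7, 2 and 0 of them at an unadjusted p below 0.05, beside 14.3% of all tested genes. Neither did any of 85 cytosolic ribosomal protein genes (-0.09), 64 respiratory chain genes (0.06) or 27 genes of the ER chaperone and secretory pathway (0.05), with 10, 6 and 3 at that unadjusted level. The stress genes Hsp26 and TotM were high in some of the dawn libraries without being called. They were also uneven at midnight, at 237.5 ± 466 and 1978 ± 2667 TPM (SD, n = 7). Over the 12 tested heat shock genes the median was 0.19, with values from -0.69 to 3.13. The small heat shock gene Hsp26 had 732, 60.9, 17.7 and 314 TPM at dawn against 7.23, 10.7 and 39.2 TPM at dusk (3.13 ± 0.776, adjusted p = 0.0702), and the 4 tested Turandot genes had a median of 1.90, of which TotM had 3620.3, 214, 646 and 304 TPM at dawn and 80.2, 217 and 385 TPM at dusk (adjusted p = 0.240).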

How the data were processed

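Fat body RNA was measured by poly(A), non-stranded, paired-end sequencing. According to the study's methods, reads were trimmed with Atropos, aligned with STAR 2.7.10a and quantified with RSEM against Ensembl BDGP6.32; the labels do not say whether the deposited table holds reads before or after removal of duplicates, which lowers the values of very abundant genes. The authors deposited TPM, which sum to a fixed total, so that a rise in abundant transcripts lowers all others, and depth is unknown.

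From these values, log2(TPM + 1) was computed for genes with a median above 5 TPM over the 12 libraries and tested with limma 3.58.1 in R 4.3.3 (lmFit and eBayes with trend, 2-sided, Benjamini–Hochberg over 7131 genes, threshold 0.05). The window-by-temperature term was fitted over 23 libraries. On simulated data the script was checked before use. Loci came from the Ensembl BDGP6.54 annotation of the same assembly, which held 23851 of 23932 identifiers.

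Genes were named by rule: all core clock genes; the 10 largest called differences per direction without overlap; up to 3 called genes per list, or the 1 with the smallest p; and the 5 smallest p-values of the temperature term. The proteasome family, its partners and some further genes (Trc8, Keap1, alc, Acbp2, Aldh-III, bbc, Pcyt1, Idgf3, Fad2, Cyp4g1) were chosen after their values were seen. Groups, members and lists were chosen with earlier results of these data known. Alternatives were the pseudocount, filter, scaling, variance prior, library weights, replicate number, marker covariates, window width, day and each library left out.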

Additional observations from a re-analysis of the deposited data

Results flagged for a closer look

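Among 92 named genes, the highest or lowest library of a window stood apart from the others by Dixon's criterion in 15 of 184 groups, where chance flags about 5%. At dawn these were Listericin (250.2 TPM), Fad2 (4296 TPM) and fbp (668 TPM) in ZT00 day 5 replicate 2, Zw (177 TPM) and Pdp1 (52.0 TPM) in ZT02, Hpd (755 TPM) in ZT00 replicate 1, and TotM (3620.3 TPM) in ZT22. At dusk these were Prosalpha6 (514 TPM), Prosalpha5 (565 TPM) and LpR1 (301 TPM) in ZT10 day 4, mdy (66.7 TPM) and gce (30.7 TPM) in ZT10 day 5, CG9782 (36.8 TPM) in ZT12 day 4 replicate 1, and Hsp26 (39.2 TPM) and Mvl (53.9 TPM) in ZT12 day 4 replicate 2.

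The dawn minus dusk difference at 25°C minus that at 18°C passed the limma test, as deposited, for 19 of the named genes. It was negative for ref(2)P (-1.001), Prosalpha6 (-0.85), Prosalpha4 (-0.79), Rpn2 (-0.74), Rpt5 (-0.73), Mgstl (-0.72), Rpn12 (-0.72), Pomp (-0.72), Rpn9 (-0.69), Prosalpha5 (-0.67), Rpn3 (-0.66), Usp14 (-0.65), Prosbeta3 (-0.65), CG30382 (-0.62), Rad23 (-0.62), Rpt6 (-0.60) and Trc8 (-0.57). It was positive for CG17108 (1.25) and Idgf3 (0.57). After rescaling by size factors none of them was called. The named genes were chosen in part by the 25°C difference or by this term, so their count is a description.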

How the results depend on the processing

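Over the alternatives, 1795 gene-level and proteasome values kept direction and side of the threshold, 555 were weaker, 22 stronger and 3 reversed: Yp3 to 0.018 with ZT00 against ZT12 only, and Prosalpha1 (-0.834 to 0.072 with a library left out) to 0.072 without ZT00 day 5 replicate 1 and to 0.113 without the libraries of high eggshell content; the cause was not tested. Besides the 97 genes, 215 were called with library weights, 10 with marker covariates, 24 with dusk of day 5 only, 10 without the high-eggshell libraries (chosen after seeing the data), 10 to 138 with a library left out, and 0 with ZT00 against ZT12 (389 with unadjusted p below 0.05) or dusk of day 4 only (839), where fewer libraries entered. Proteasome calls were 0 in 5 alternatives and 29 with library weights or without ZT10 day 5 replicate 1. By temperature, besides the 40, 25 and 66 were called at a median above 0 and 20 TPM, 0 after rescaling, 1066 with library weights, 9 with marker covariates, 284 without high-eggshell libraries (which left 1 dawn library at 18°C, assumed to vary like the rest) and 0 to 83 with a library left out. The replicate block gave 130 and 55 calls; the deviations of replicate 2 correlated at 0.61 between windows, but with 1 dawn library of replicate 2 the numbers do not pair the libraries. TPM keep no depth, so counting error cannot be given, and the 4 dawn libraries come from 1 transition; on days 1 and 2 the proteasome median was -0.02.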
